A study of Mus musculus with 3 samples.

Results

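The genes described here are the heat shock chaperones and J-domain co-chaperones of sorted mouse hippocampal neurons. They are the protein-coding genes whose GENCODE vM21 symbol starts with Hspa, Hspb, Hspd, Hspe or Hsph and a digit, with Hsp90, or with Dnaja, Dnajb or Dnajc and a digit. The rule found 72 of the 52636 genes in the count table, which holds 21883 protein-coding genes of the nuclear genome. They comprised 3 HSP90, 11 HSP70, 3 HSP110, 2 chaperonin, 8 small HSP, 4 DNAJA, 13 DNAJB and 28 DNAJC genes.

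RNA-Seq was performed on live tdTomato-positive cells sorted by FACS (fluorescence-activated cell sorting) from papain-digested hippocampi of male C57BL/6J mice with the genotype Camk2a-Cre +/-, Ai14 +/-, aged postnatal day 28 to 32. The series has 3 biological replicates, each pooled from 2 to 4 mice, and no other condition. Ai14 is a reporter allele that expresses the red fluorescent protein tdTomato after Cre recombination, and the Camk2a promoter drives Cre in a subset of forebrain excitatory neurons, in the hippocampus mainly in CA1 pyramidal cells. Every sample carried both alleles and was dissociated at body temperature and sorted, so levels in intact tissue and any contribution of the alleles, the digestion or the sort cannot be told apart here.

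The libraries had 48159841, 25686630 and 15833075 assigned counts in replicates 1, 2 and 3, of which 316196, 164467 and 95955 fell on the 72 genes. All 5 CA1 pyramidal markers were detected, with a median level of 268 ± 2.88 TPM (SD, n = 3), and Fibcd1 (450 TPM) and Wfs1 (404 TPM) were the highest of them. TPM, a measure of transcript abundance per unit of length, is a count divided by the length of the gene's merged exons and scaled so that the nuclear protein-coding genes sum to 1000000, and a gene was called detected at 1 TPM or more in each replicate. Markers of other cells were present too. The medians were 128 ± 8.80 TPM over 4 dentate granule markers, 166 ± 32.5 over 5 oligodendrocyte markers and 8.47 ± 2.54 over 5 astrocyte markers, the 5 microglial markers had means from 3.53 to 13.7 TPM, and no listed marker was at 0 in all replicates. In such bulk samples, fewer cells of a type and less RNA per cell cannot be told apart.

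Chaperones bind unfolded or partly folded proteins and keep them from aggregating. HSP70 proteins do so in a cycle of ATP hydrolysis that J-domain proteins (the DNAJ families) start and HSP110 proteins reset by nucleotide exchange, while HSP90 proteins receive later folding intermediates such as kinases and steroid receptors. Small HSPs hold misfolded proteins without ATP, and the chaperonin HSP60 with its lid HSP10 encloses proteins of the mitochondrial matrix. Neurons do not divide and carry long axons with many synapses, and there DNAJ proteins also uncoat clathrin vesicles and maintain release machinery. Some of these genes are induced through heat shock elements by the factor HSF1, and those of the endoplasmic reticulum (ER) through ER stress elements.

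A few of the chaperone promoters hold a match to 1 of these elements. The matches are printed here to show in which cytosolic, mitochondrial and ER genes this search found them. RefSeq promoters (GRCm38.p6, 250 bases before to 50 after each annotated start) were found for 58 of the 72 genes. The heat shock element was searched on both strands as 3 alternating units, GAANNTTCNNGAA or TTCNNGAANNTTC, whose matches may overlap. It occurred in 4 of the 58 genes (6.90%), against 91 of 16478 nuclear protein-coding genes with a promoter (0.552%). The ER stress element was searched on both strands as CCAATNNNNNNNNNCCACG or its reverse complement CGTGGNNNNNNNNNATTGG. It occurred in 3 of the 58 genes (5.17%), against 28 of 16478 (0.170%). These are matches of letters in a window, not measured sites. Looser matches and positions outside the window were not searched, so a gene without a match may still carry an element.

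The ER stress element matches were in Hspa5, Hsp90b1 and Dnajc3, all in the list of 9 ER chaperones, of which 8 had a promoter. Each sequence is written 5′ to 3′ on the strand of the gene, with the element in capitals and 20 bases on either side. The match of Hspa5 (chr2:34772005-34772063, plus strand) began 65 bases before the RefSeq start and that of Dnajc3 (chr14:118937807-118937865, plus strand) 105 bases before it. Hsp90b1 (minus strand) had a pair of matches, 212 bases before the start in the CCAAT direction (chr10:86705618-86705676) and 107 bases before it in the opposite direction (chr10:86705513-86705571).
Hspa5: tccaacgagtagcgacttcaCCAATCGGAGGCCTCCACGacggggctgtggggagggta
Dnajc3: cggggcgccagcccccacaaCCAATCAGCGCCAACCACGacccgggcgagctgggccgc
Hsp90b1, farther match: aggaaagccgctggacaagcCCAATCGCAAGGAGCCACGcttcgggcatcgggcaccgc
Hsp90b1, nearer match: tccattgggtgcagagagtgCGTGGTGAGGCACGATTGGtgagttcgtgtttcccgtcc

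The heat shock element matches were in Hspd1, Hspe1, Hsph1 and Dnajb6. Hspd1 and Hspe1 lie head to head on chromosome 1, and their annotations overlap by 112 bases. Between the RefSeq start of Hspe1 and 1 RefSeq start of Hspd1 lies 1 element that falls in both windows (chr1:55088039-55088096). It holds 2 overlapping matches over 18 bases. It begins 144 bases before this start of Hspd1 (minus strand) and 89 bases before that of Hspe1 (plus strand). The window of another RefSeq start of Hspd1 (chr1:55088194-55088493) held no match. The element of Dnajb6 (chr5:29735832-29735884, plus strand) lay 46 or 127 bases before the start, depending on the RefSeq transcript, and that of Hsph1 (chr5:149636268-149636320, minus strand) 15 or 36 bases after it. Of the 8 genes listed as heat-inducible, 7 had a promoter entry and Hsph1 alone had a match in this window.
Hspe1, element shared with Hspd1: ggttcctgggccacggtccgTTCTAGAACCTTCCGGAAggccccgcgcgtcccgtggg
Hspd1, the same element on the other strand: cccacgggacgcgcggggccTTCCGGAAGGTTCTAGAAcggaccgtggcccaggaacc
Dnajb6: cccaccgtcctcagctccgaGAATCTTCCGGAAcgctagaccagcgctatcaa
Hsph1: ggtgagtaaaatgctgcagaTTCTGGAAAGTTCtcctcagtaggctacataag

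Of the 72 genes, 63 were detected (87.5%), against 60.1% of all nuclear protein-coding genes. By mean level, 19 genes were at 100 TPM or more, 34 from 10 to under 100, 11 from 1 to under 10 and 8 under 1 TPM. Among the 13815 nuclear protein-coding genes with a mean of at least 1 TPM, the median percentile of the 64 chaperones and co-chaperones by level was 68.3, 47 of them lay above the median and 14 in the top 10%. Together the 72 genes made up 0.897, 0.884 and 0.867% of the protein-coding TPM in replicates 1, 2 and 3 (mean 0.883 ± 0.0149%, SD, n = 3). The 3 most abundant mRNAs supplied 46.7 ± 1.19% of that sum and the 12 most abundant 69.7 ± 0.926%. The series has a single condition, so these values describe the cells and no test between groups was possible. An exact test of 3 paired values cannot go below p = 0.25.

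**Figure D1:**
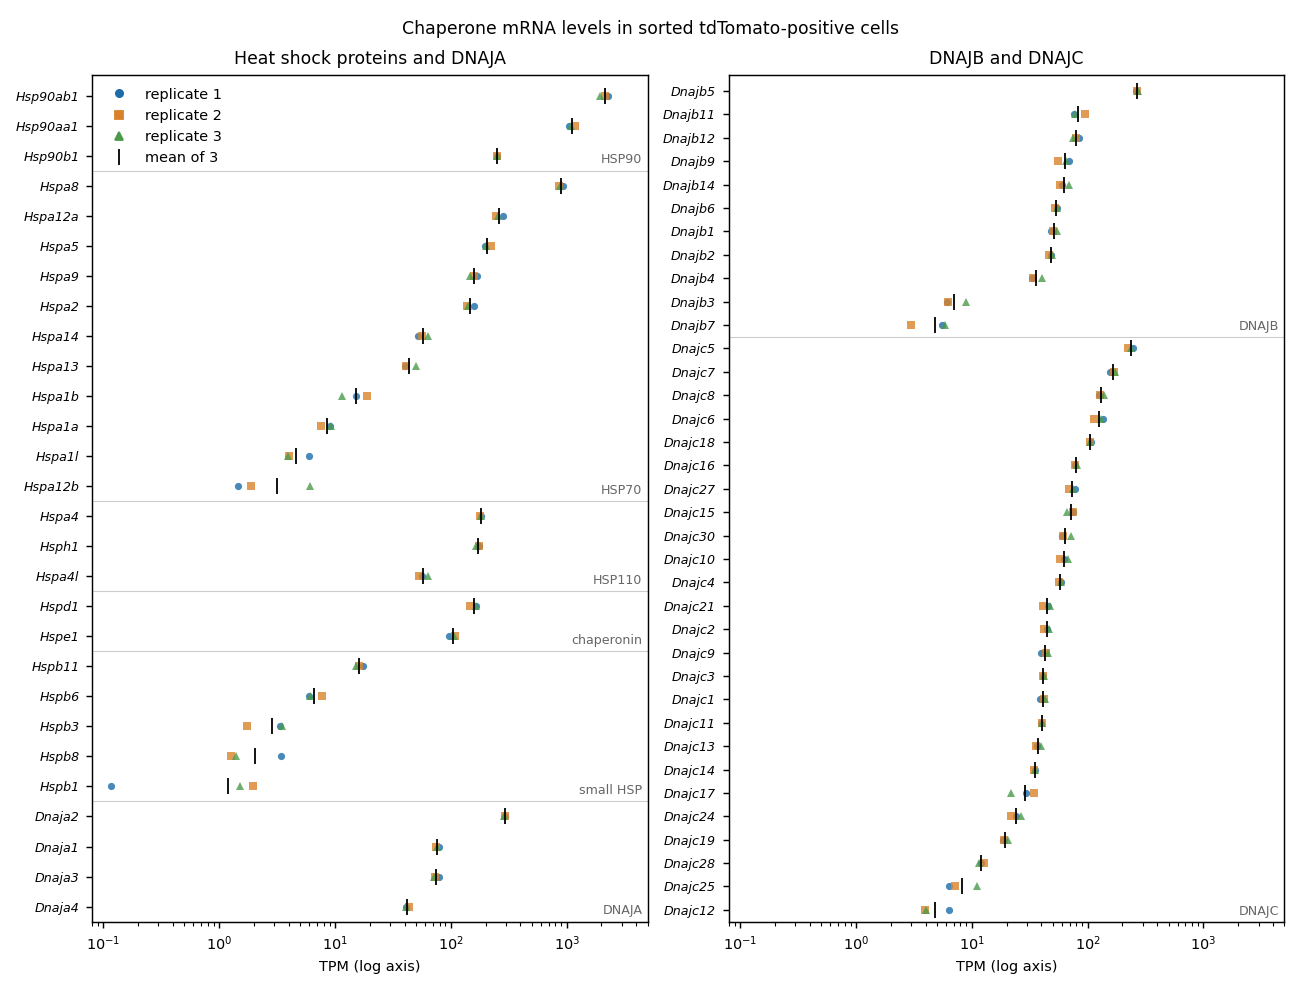
Level of each of the 64 chaperones and co-chaperones with a mean of at least 1 TPM (log axis), grouped by family, with 1 point for each of the 3 replicates and a bar at their mean. The levels run from 1.20 TPM for Hspb1 to 2125 TPM for Hsp90ab1, and the replicates separate visibly only among genes of low level such as Hspb1, Hspb8 and Hspa12b.

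HSP90 was the most abundant class, with a summed level of 3487 ± 158 TPM, which was 39.5 ± 1.29% of the TPM of all 72 genes. Its most abundant member was Hsp90ab1 (ENSMUSG00000023944.14, chr17:45567775-45573271, minus strand), the constitutive cytosolic HSP90, at 2262, 2153 and 1959 TPM in replicates 1, 2 and 3 (mean 2125 ± 154). Hsp90aa1 (ENSMUSG00000021270.13, chr12:110690605-110702728, minus strand), its stress-inducible paralog, was at 1048, 1189 and 1094 TPM (1111 ± 71.9). The 2 did not overlap in any replicate. Hsp90ab1 exceeded Hsp90aa1 by 1.11, 0.86 and 0.84 on the log2 scale of TPM in replicates 1, 2 and 3 (mean 0.94 ± 0.15), or 1.91-fold. Hsp90b1, the HSP90 of the ER, was lowest of the 3 at 248, 253 and 253 TPM (251 ± 2.58), and the cytosolic pair summed to 12.9 times its level (log2 ratio 3.69 ± 0.08).

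The distance between Hsp90ab1 and Hsp90aa1 depends on how reads of nearly identical sequences were assigned. Of the 31-base words of Hsp90aa1 exons, 51.5% also occur in other genes, 46.7% in the processed pseudogene Gm12346, which is annotated as transcribed. Gm12346 itself was listed with 12936, 8124 and 4332 counts, equal to 38.7 ± 0.907% of the counts of Hsp90aa1, and a further pseudogene, Gm5844, with 7.36 ± 0.303%. With the counts of both pseudogenes added to the gene, Hsp90aa1 stood at 1621 ± 117 TPM and the log2 ratio fell to 0.39, still in favour of Hsp90ab1. Whether those reads came from Hsp90aa1 was not tested.

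The 11 HSP70 genes summed to 1795 ± 58.4 TPM (20.3 ± 0.457% of the chaperone total), and all 11 were detected. Hspa8 (ENSMUSG00000015656.17, chr9:40800984-40810087, plus strand), the constitutive cytosolic HSC70 that also drives clathrin uncoating, led the class at 930, 857 and 880 TPM (889 ± 37.6). Its replicates lay below all those of Hsp90aa1 and far above those of every gene ranked lower. Hspa12a, a divergent HSP70 abundant in brain, was next at 283, 248 and 254 TPM (262 ± 18.4). Hspa5 (BiP), the ER HSP70, was at 196, 220 and 203 TPM (207 ± 12.4), and Hspa9 (mortalin), the mitochondrial one, at 170, 160 and 147 TPM (159 ± 11.6). Hspa8 exceeded Hspa5 by 2.11 ± 0.14 on the log2 scale of TPM, or 4.30-fold. Hspa2, best known from the testis, reached a mean of 146 TPM here, Hspa14, which works at the ribosome, 57.4 TPM and Hspa13, an ER-associated member, 43.6 TPM. The level of Hspa14 was 100.1 TPM with the longest annotated transcript in place of merged exons as its length.

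The heat-inducible HSP70 genes Hspa1a and Hspa1b stood far below Hspa8. Hspa1b was at 15.4, 18.9 and 11.5 TPM (15.2 ± 3.71) and Hspa1a at 9.01, 7.55 and 9.28 TPM (8.62 ± 0.928), and their replicates did not overlap with each other. Hspa8 exceeded their sum by 38.2-, 32.4- and 42.4-fold in replicates 1, 2 and 3 (log2 ratio of TPM 5.23 ± 0.20). Hspa1a, Hspa1b and Hspa1l lie side by side on chromosome 17, with 9951 bases between Hspa1b and Hspa1a and 546 between Hspa1a and Hspa1l. Hspa1b shares 67.6% of its 31-base words with Hspa1a and Hspa1a 63.8% of its own with Hspa1b, so the split between them is uncertain. How reads that map to both were counted is not given. If they were left out, the sum is too low and its distance from Hspa8 too large. Of the exon bases of Hspa1a, 19.0% overlap Gm20481 on the opposite strand. Hspa1l, a testis-associated member, was at a mean of 4.64 TPM, and 71.9% of its exon bases overlap Gm10501 on the opposite strand, whose reads cannot be told apart from its own where counting did not use strand.

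The HSP110 genes, nucleotide exchange factors for HSP70, summed to 412 ± 3.78 TPM. Hspa4 was at 182, 178 and 184 TPM (181 ± 3.02), Hsph1 at 175, 176 and 166 TPM (172 ± 5.68), and Hspa4l at 56.9, 53.0 and 64.2 TPM (58.0 ± 5.69). Hspa4 lay above Hsph1 in every replicate and both lay above Hspa4l. With the longest transcript as the length the first pair turned, with Hsph1 at 203 ± 7.42 TPM and Hspa4 at 167 ± 2.81 TPM. The chaperonin subunits summed to 263 ± 7.75 TPM, with Hspd1 (HSP60) at 164, 148 and 164 TPM (158 ± 9.36) and Hspe1 (HSP10), from the other side of the shared promoter, at 96.8, 109 and 108 TPM (104 ± 6.57). Hspd1 exceeded Hspe1 in all 3 replicates, by 0.60 ± 0.16 on the log2 scale of TPM. The size of that difference is tied to length and to copies: it was 0.11 with the longest annotated transcript as the length and 1.07 with the counts of the pseudogene Hspd1-ps3 (38.1 ± 1.89% of those of Hspd1) added. Hspe1 also shares 30.5% of its 31-base words with other genes, 23.1% with AC117239.2, whose counts were not added, so the latter value corrects 1 side of the ratio only.

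**Figure D2:**
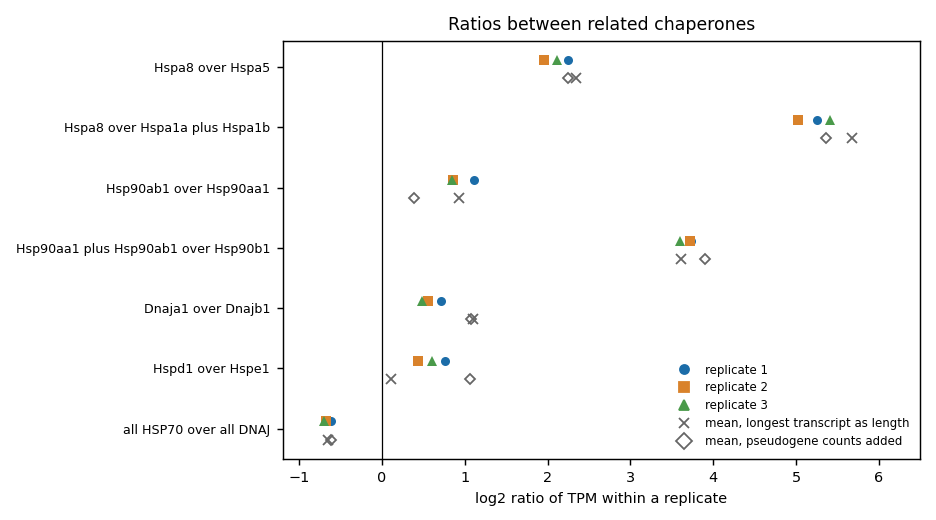
Log2 ratio of TPM between related chaperones within each of the 3 replicates (filled symbols), with the mean of 3 when the longest annotated transcript replaces merged exons as the length (crosses) and when pseudogene counts are added to the parent gene (open diamonds). All ratios keep their sign, Hspa8 over Hspa1a plus Hspa1b is the largest at 5.23, and Hspd1 over Hspe1 lies between 0.11 and 1.07 under these alternatives.

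Small HSPs were the scarcest class. The 8 genes summed to 29.8 ± 1.97 TPM, 0.338 ± 0.0171% of the chaperone total, and 4 of 8 were detected. Hspb11, which carries the family name but belongs to the intraflagellar transport machinery of cilia, was at 17.4, 16.2 and 15.2 TPM (16.2 ± 1.10) and supplied most of the sum. Hspb6, a small HSP of muscle, had a mean of 6.57 TPM, Hspb3, also of muscle, 2.86 TPM and Hspb8, the partner of Bag3 in chaperone-assisted autophagy, 2.04 TPM. Hspb1 (HSP27), the classical inducible small HSP, rested on 1, 9 and 4 counts, or 0.116, 1.98 and 1.50 TPM, with exact 95% Poisson intervals of 0.00294 to 0.648, 0.904 to 3.75 and 0.410 to 3.85 TPM. Its replicates 1 and 2 differed beyond these intervals, which cover counting error only, and replicate 3 overlapped with both. Hspb2, of muscle, rested on 4, 3 and 0 counts and Hspb9, of testis, on 3, 3 and 0 counts, both under 1 TPM, and 30.2% of the exon bases of Hspb2 overlap Cryab on the opposite strand. Hspb7, a small HSP of heart, had 0 counts in each library, which allows up to 0.130, 0.245 and 0.420 TPM in replicates 1, 2 and 3 (3 counts), and a lower level was not detectable at this depth. The α-crystallins are small HSPs outside the symbol rule. Cryab was at a mean of 16.3 ± 3.20 TPM, close to Hspb11, and Cryaa, the crystallin of the lens, had no count.

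The J-domain families together outweighed the HSP70 genes they serve. HSP70 over DNAJ summed TPM was -0.61, -0.67 and -0.70 on the log2 scale in replicates 1, 2 and 3 (mean -0.66 ± 0.05), or 0.632-fold. DNAJC was the largest of the families with 1600 ± 39.2 TPM over 28 genes (18.1% of the chaperone total), followed by DNAJB with 755 ± 12.9 TPM over 13 genes (8.56%) and DNAJA with 486 ± 6.44 TPM over 4 genes (5.50%).

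**Figure D3:**
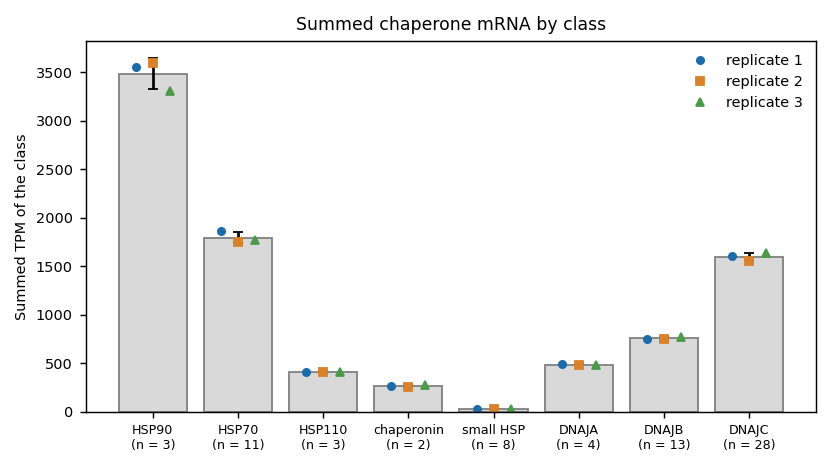
Summed TPM of each chaperone class (linear axis from 0), with bars at the mean of 3 replicates, error bars of 1 SD and points for each replicate. HSP90 with 3 genes stands at 3487 TPM, the 28 DNAJC genes at 1600 TPM and the 8 small HSP genes at 29.8 TPM, and the order of the classes is the same in all 3 replicates.

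DNAJA proteins are the general J proteins closest to the bacterial DnaJ. Dnaja2 was at 292, 295 and 289 TPM (292 ± 3.22) and thereby the most abundant J-protein mRNA with merged exons as the length, above every replicate of the next gene in the order. With the longest transcript as the length it stood at 230 ± 3.19 TPM, below Dnajc7 (266) and Dnajb5 (241). Dnaja1 was at 79.3, 74.4 and 76.6 TPM (76.7 ± 2.48), Dnaja3, the mitochondrial member, at a mean of 75.0 TPM and Dnaja4 at 40.7, 43.3 and 41.2 TPM (41.7 ± 1.36). Dnaja1 has several processed copies, of which Gm15542 and Gm7816 were listed with 23.7 ± 2.71 and 16.9 ± 1.37% of its counts, and 44.1% of the exon bases of Dnaja4 overlap Wdr61 on the opposite strand. Both levels are therefore uncertain.

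In DNAJB, the class of the inducible partner of HSP70, Dnajb5 stood apart at 260, 268 and 270 TPM (266 ± 5.58). Dnajb1 (HSP40), the heat-inducible J protein, was at 48.3, 50.7 and 54.8 TPM (51.3 ± 3.31), and Dnaja1 exceeded it by 0.58 ± 0.12 on the log2 scale of TPM, in all 3 replicates. Dnajb2 and Dnajb6, which keep ubiquitinated or polyglutamine proteins soluble, were at 48.7, 46.0 and 49.0 TPM (47.9 ± 1.63) and 54.3, 51.8 and 54.8 TPM (53.6 ± 1.58). The replicates of Dnajb1 overlapped with those of both, whereas every replicate of Dnajb6 lay above every replicate of Dnajb2. With the longest transcript as length, Dnajb6 stood at 86.0 TPM, and 7 processed pseudogenes that share words with it were listed with 50.1 ± 3.09% of its counts in sum, so its level is uncertain. Dnajb12 and Dnajb14, anchored in the ER membrane, had means of 79.4 and 62.4 TPM and Dnajb4 of 35.6 TPM. Members best known from testis or cilia were low. Dnajb3 had a mean of 7.09 TPM and Dnajb7 of 4.83 TPM, Dnajb8 rested on 12, 7 and 1 counts, and Dnajb13, a protein of motile axonemes, on 10, 2 and 1 counts, or 0.439, 0.166 and 0.142 TPM.

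DNAJC proteins share only the J domain and bring HSP70 to particular sites. Dnajc5 (cysteine string protein), which guards SNARE proteins on synaptic vesicles, was at 248, 222 and 236 TPM (236 ± 13.1) and led the family with merged exons as the length. Its testis relatives were near or at 0, with 1 count in all for Dnajc5g and none for Dnajc5b, which allows up to 0.286, 0.539 and 0.924 TPM. Dnajc22 likewise had 0 counts, which allows up to 0.194, 0.367 and 0.629 TPM. Dnajc7, a tetratricopeptide protein that hands clients between HSP70 and HSP90, was at 156, 169 and 171 TPM (165 ± 7.89). With the longest transcript as the length the order of the pair turned, with Dnajc7 at 266 ± 11.4 TPM and Dnajc5 at 192 ± 11.3 TPM. Dnajc8, a splicing-associated member, had a mean of 131 TPM and Dnajc18 of 105 TPM.

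The 6 J proteins listed as synaptic or neuronal co-chaperones were all detected and summed to 767 ± 24.9 TPM, 8.69 ± 0.314% of the chaperone total. Besides Dnajb5, Dnajc5, Dnajb6 and Dnajb2, they are Dnajc6 and Dnajc13. Dnajc6 (auxilin), the neuronal J protein that removes clathrin coats with Hspa8, was at 136, 114 and 129 TPM (127 ± 11.3). Dnajc13 (RME-8), which acts on endosomes, was lowest at 36.8, 36.0 and 40.0 TPM (37.6 ± 2.10). Gak, the ubiquitous relative of auxilin outside the symbol rule, was at 82.1, 76.4 and 76.8 TPM (78.4 ± 3.18), below Dnajc6 in all 3 replicates.

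The remaining DNAJC genes covered the middle and the low end of the range. The mRNAs of Dnajc9, which handles histones, Dnajc2 at the ribosome, Dnajc21 in ribosome biogenesis and Dnajc11 at mitochondrial cristae had means of 42.8, 44.4, 44.9 and 40.2 TPM. Dnajc17, a splicing-associated member, was at 28.7 ± 6.45 TPM and Dnajc24, of the diphthamide pathway, at 24.2 ± 2.48 TPM. Dnajc12, a partner of aromatic amino acid hydroxylases, was low at 4.82 ± 1.40 TPM. Dnajc16, Dnajc27, Dnajc30, Dnajc4, Dnajc14 and Dnajc28 ranged from a mean of 12.1 TPM for Dnajc28 to 79.2 TPM for Dnajc16, and 26.2% of the exon bases of Dnajc30 overlap Bud23 on the opposite strand. The mean of Dnajc15, an import-motor protein of mitochondria, was 72.0 TPM with the deposited exon length of 648 bp and 5.82 TPM with its longest transcript in GENCODE vM21, so its level cannot be placed.

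By compartment, all 9 listed ER chaperones, a list that leaves out Dnajb12 and Dnajb14, were detected and summed to 802 ± 18.4 TPM. The 3 with a match to the ER stress element in their promoter window differed in level. Hsp90b1 was at 251, Hspa5 at 207 and Dnajc3, an inhibitor of translational control kinases, at 41.3, 41.6 and 41.8 TPM (41.6 ± 0.211). Dnajb11, Dnajb9 and Dnajc10, J proteins of BiP in folding and degradation, followed at means of 82.9, 63.3 and 63.0 TPM, Dnajc1 was at 41.3 TPM (67.6 TPM with the longest transcript as length), and Dnajc25 was lowest at 6.34, 7.18 and 11.2 TPM (8.23 ± 2.59). The 6 listed mitochondrial chaperones, a list that is not complete and leaves out Dnajc11 among others, were all detected and summed to 588 ± 13.6 TPM. Without Dnajc15, whose level depends on its length, the sum was 516 ± 10.7 TPM. Hspa9 was the highest, and Dnajc19, the J protein of the import motor, was at 18.5, 19.1 and 20.4 TPM (19.3 ± 0.978), lowest of the 5 others. The pseudogene Dnajc19-ps was listed with 41.7 ± 6.67% of the counts of Dnajc19.

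The 8 genes listed as heat-inducible summed to 1432, 1572 and 1478 TPM (1494 ± 71.4), and Hsp90aa1 alone supplied most of it. Their levels spanned a wide range: Hsp90aa1 and Hsph1 stood above 100 TPM in every replicate, Dnaja1, Hspa4l and Dnajb1 between 48.3 and 79.3 TPM, Hspa1b and Hspa1a between 7.55 and 18.9 TPM, and Hspb1 under 2 TPM. Of the 8, 7 were detected. Hsf1, the transcription factor that induces them, was at 160, 172 and 161 TPM (164 ± 6.48), above Hsf2 (25.7 ± 1.73) and Hsf4 (16.1 ± 2.27). The immediate early genes, which neurons switch on with activity, were measured beside them. Of the 10 listed, 9 were detected, with Egr1 at 252, 228 and 301 TPM, Arc at 254, 228 and 266 TPM, Fos at 22.6, 14.9 and 26.2 TPM and Atf3, a stress-induced factor, at 1.78, 0.736 and 1.08 TPM. No undissociated sample stands beside these libraries, and the part of the digestion in either set of levels was not tested.

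The partners that work with these chaperones were broadly present. All 14 listed HSP70 partners were detected, with a median of 85.9 ± 2.85 TPM. Stip1 (HOP), which joins HSP70 to HSP90, was highest at 235, 209 and 211 TPM (218 ± 14.3), Bag1 and Bag6 followed at 172 and 178 TPM, and Bag3, the stress-inducible partner of Hspb8, was lowest at 5.48, 4.24 and 8.02 TPM (5.91 ± 1.93). All 11 genes listed as HSP90 partners were detected in the range of 51.8 TPM for Fkbp5, an immunophilin of steroid receptors, to 183 TPM for Sgta. The list includes Trap1 (102 TPM), which is itself an HSP90 outside the symbol rule and not a partner. Ptges3 (p23) had a mean of 173 TPM. The 7 subunits of the cytosolic chaperonin TRiC found under their listed symbols were all detected, with a median of 111 ± 3.80 TPM and Cct2 highest at 229 TPM, and the 4 J proteins outside the symbol rule ranged from 34.2 TPM for Hscb, of iron-sulphur cluster assembly, to 78.4 TPM for Gak.

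The order of the 72 levels was better separated by replicates at the top than below, but depended on the length used. Of 71 neighbouring pairs in the order of mean TPM, 57 had overlapping replicates and 14 did not. Among the 12 most abundant genes, 7 of 11 neighbouring pairs did not overlap, and the overlapping ones were Dnajb5 with Hspa12a, Hspa12a with Hsp90b1, Hsp90b1 with Dnajc5 and Hsph1 with Dnajc7. The same 12 genes led the order with the longest transcript as the length, but all except Hsp90ab1, Hsp90aa1 and Hspa8 changed rank. Dnajc7 ranked 4 in place of 12, Hsph1 8 in place of 11, Dnaja2 7 in place of 4 and Hspa4 12 in place of 10. This turned the non-overlapping pairs of Dnaja2 with Dnajb5 and of Hspa4 with Hsph1. With pseudogene counts added, Hspd1 ranked 9 and Dnajc7 left the leading 12.

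Levels varied little between the replicates. The ratio of the highest to the lowest normalized count (divided by size factors of 1.78, 0.963 and 0.592) had a median of 1.14 over the 64 genes with a mean of at least 1 TPM and of 1.20 over all 13815 such genes. The median coefficient of variation was 6.94% and 9.50%, respectively. This ratio reached 2-fold in 3 of the 64 genes (4.69%), against 8.79% of all such genes. Of the 53 chaperones at 10 TPM or more, 0 reached it, as did 0.944% of all 10279 genes at that level, and the widest ratio among those 53 was 1.73, in Hspa1b. The normalized count was highest in replicate 1 for 36 of the 64 genes (56.2%), in replicate 2 for 14 and in replicate 3 for 14 (21.9% each), against 40.2, 27.7 and 32.1% of all genes with a mean of at least 1 TPM.

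**Figure D4:**
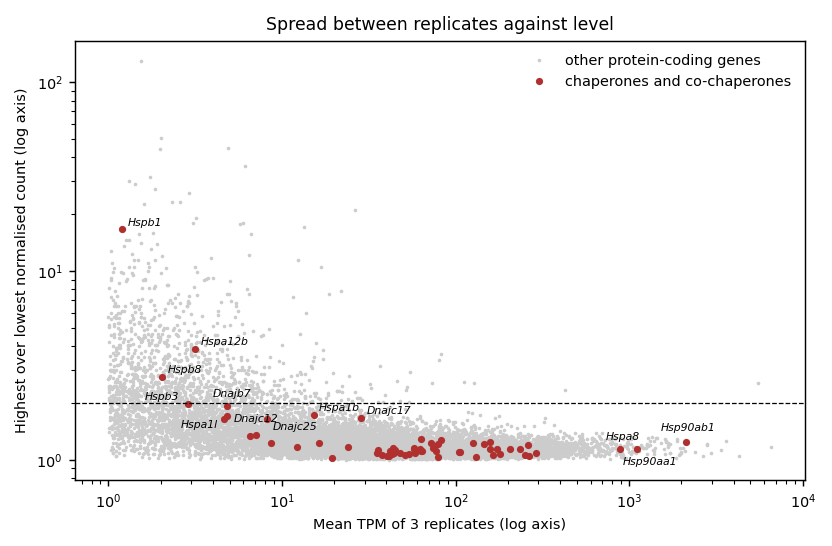
Ratio of the highest to the lowest normalized count among the 3 replicates (log axis) against mean TPM (log axis), for chaperones and co-chaperones (red) and all other protein-coding genes with a mean of at least 1 TPM (grey), with a dashed line at 2-fold. Hspb1, Hspa12b and Hspb8 lie above the line and all 3 are under 10 TPM, and 74 genes with a count of 0 in a replicate are not drawn.

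The 3 variable genes moved in different replicates. Hspb1 was low in replicate 1 on very few counts. Hspa12b (ENSMUSG00000074793.10, chr2:131127280-131146321, plus strand), an HSP70 relative known from endothelial cells, was at 1.46, 1.90 and 6.10 TPM (45, 31 and 58 counts), so replicate 3 was high and the ratio of normalized counts was 3.87. Without replicate 3, Hspa12b no longer reached 2-fold. Endothelial markers moved with it: the summed level of the 5 was 11.8, 18.8 and 73.3 TPM, that of Cldn5 5.85, 10.6 and 49.4 TPM, and all 5 spanned at least 2-fold, although 2 of 5 were detected in each replicate. Mural markers did so as well, with a sum of 16.0, 20.7 and 76.3 TPM and 4 of 5 detected, and Kcnj8 was at 0 in replicate 2. Their part in the level of Hspa12b was not tested. Hspb8 (ENSMUSG00000041548.4, chr5:116408491-116422864, minus strand) was high in replicate 1 at 3.44 TPM, against 1.28 and 1.39 TPM (56, 11 and 7 counts), and the ratio was 2.76. Of the 5 astrocyte markers, Gfap (29.5, 10.5 and 18.9 TPM) and Aqp4 (10.3, 5.57 and 9.54 TPM) were also highest in replicate 1. Slc1a2, Aldh1l1 and Gja1 were highest in replicate 3, as was the summed level of the 5, at 187, 121 and 221 TPM. Their part in the level of Hspb8 was not tested.

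**Figure D5:**
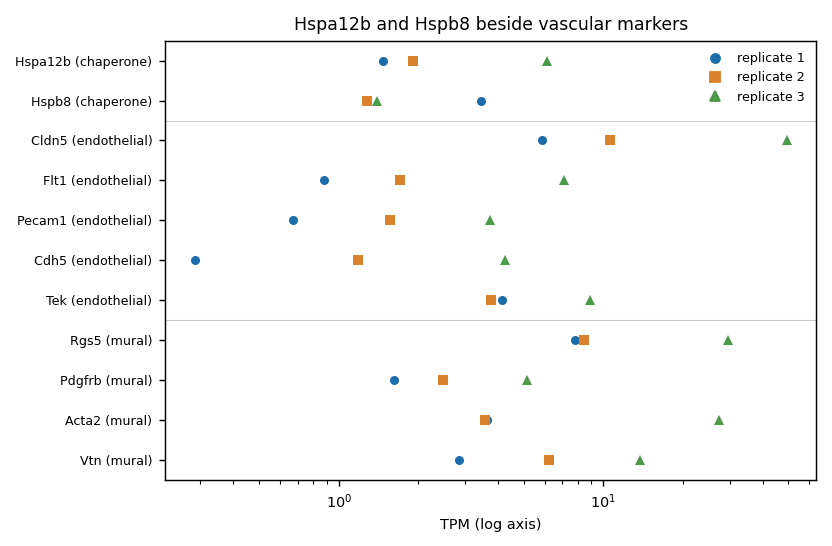
TPM (log axis) of Hspa12b and Hspb8 and of the endothelial and mural marker genes in each of the 3 replicates, without Kcnj8, which had no count in replicate 2. Hspa12b and all 9 markers drawn are highest in replicate 3, where Cldn5 reaches 49.4 TPM, while Hspb8 is highest in replicate 1 at 3.44 TPM.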

How the data were processed

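Poly(A) RNA libraries of the 3 replicates had been sequenced as paired-end reads. The deposited values are raw counts per gene, made by the authors with STAR and featureCounts on GRCm38 (mm10) per the submitters' processing notes, beside the merged exon length in bp. Versions, annotation release, strand, read or fragment counting, multimapping and filters are not given in the sources used here. The 3 sample columns were all analysed, leaving 0 unused. Identifiers without version were matched to GENCODE vM21, which named 52489 of 52636. Groups and replicate numbers came from the sample titles, and the series calls the replicates biological.

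TPM used the nuclear protein-coding genes as denominator, because these made up only 27.9 to 37.4% of the TPM of all genes. Counts were normalized by size factors from medians of ratios, and TMM factors of edgeR 4.0.16 (R 4.3.3), 0.989, 1.01 and 1.01, entered alternatives only. Levels are means ± SD of 3 replicates. Poisson intervals (95%) and limits of 3 counts cover counting error only. Scripts ran in Python 3.11.15 with numpy 2.4.6, pandas 2.3.3, scipy 1.17.1 and matplotlib 3.10.9 and were tested on simulated data. Shared sequence was counted as 31-base words of annotated exons found in other genes, and exon overlap as shared positions. RefSeq held no promoter entry for Dnajc11, Dnajc12, Dnajc18, Dnajc2, Dnajc22, Dnajc30, Dnajc5, Dnajc5b, Hsp90aa1, Hsp90ab1, Hspa13, Hspa8, Hspa9 and Hspb2. Protein sequences, though planned, were not analysed here.

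Members, family, compartment, marker and partner lists were chosen with earlier results of these data known. Genes given by replicate are the 12 most abundant, the heat-inducible and synaptic lists, those spanning at least 2-fold, and the most and least abundant of each family. Genes outside the rule come from the fixed lists, except pseudogenes and overlapping neighbours, which were named after their values were seen. Cct6a was listed with TRiC and was not matched. Of the marker lists, excitatory neurons had a median of 1464 TPM (4 of 4 detected), interneurons 1.12 TPM (2 of 6), and ependyma and choroid plexus 4.16 TPM (3 of 5). Alternatives were the TPM denominator, the gene length, TMM scaling, the thresholds, a pseudocount of 10, leaving out overlapping genes and leaving out each replicate. Adding pseudogene counts was chosen after seeing the data.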

Additional observations from a re-analysis of the deposited data

Results flagged for a closer look

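Rows outside the symbol rule were considered if annotated as processed pseudogenes with at least 10% of a chaperone gene's 31-base words. Most of them held more than the 3 counts that a count of 0 allows in every replicate. The exceptions, with 0 counts in each replicate, were Gm15459 (38.6% of the words of Hspa8), Hsp25-ps1 (52.3% of Hspb1) and Gm14868 (14.8% of Dnajc5b). For Hsp90aa1 the rows with counts were Gm12346, annotated as transcribed, with a mean of 8464 counts over 3 replicates and Gm5844 with 1624 counts. For Hspa8 they were Gm8355 with 1807 counts, Gm6210 with 128 counts, Gm8337 with 43.3 counts and Gm8326 with 19.7 counts. For Dnaja1 they were Gm15542 with 841 counts and Gm7816 with 577 counts, and for Hspd1 the pseudogene Hspd1-ps3 with 803 counts. Smaller counts were at Gm4928, the copy of Dnajc8, with 144 counts, Gm6257 of Dnajc17 with 43 counts and Gm6568 of Dnajb9 with 37.7 counts. Dnajb6 had Gm2541 with 53.7 counts, but 6 more of its copies lay under the minimum of 10%, among them Gm6395 (9.97% of the words) with 593, 290 and 203 counts and Gm13414 (9.998%) with 375, 174 and 79 counts. All 7 copies of Dnajb6 summed to 50.1 ± 3.09% of its own counts. Summed over the copies of a gene at or over that minimum, they were 31.5 ± 0.508% of the pooled counts of gene and copies for Hsp90aa1, 28.8 ± 1.85% for Dnaja1, 27.6 ± 0.992% for Hspd1 and 9.25 ± 0.606% for Hspa8 (SD, n = 3). Those shares were close between the replicates, whereas that of Dnajc17 was 14.7, 15.5 and 33.3% in replicates 1, 2 and 3. Whether these reads came from the copies or from the genes was not tested.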

How the results depend on the processing

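Of 76 alternative values for 12 summaries and ratios, 51 moved by less than the spread between replicates, 25 by more and 0 reversed. Of 168 for 24 single genes, the numbers were 99, 69 and 0. Levels, counts and shares are never negative, so for them a reversal of sign could not occur. Turns in the order of genes, given above, were not part of these numbers. By construction, all genes in the TPM denominator lowered the levels: the median over all 72 genes was 46.4 TPM and became 14.6. The summed share became 0.278% and the median percentile 65.5. TMM-scaled RPKM gave a median of 7.85. With the longest transcript as length, the median was 49.3 TPM, the summed share 0.848%, and the log2 ratios were 2.35 for Hspa8 over Hspa5, 5.67 for Hspa8 over Hspa1a plus Hspa1b, 1.11 for Dnaja1 over Dnajb1 and 0.11 for Hspd1 over Hspe1. Counts not divided by length gave log2 ratios of 5.81 for Hspa8 over Hspa1a plus Hspa1b, 0.55 for Hsp90ab1 over Hsp90aa1, 3.40 for the cytosolic HSP90 pair over Hsp90b1, 2.01 for Dnaja1 over Dnajb1, 1.44 for Hspd1 over Hspe1 and -0.88 for HSP70 over DNAJ. Adding pseudogene counts, chosen after seeing the data, gave 0.39 for Hsp90ab1 over Hsp90aa1, 3.90 for the cytosolic pair over Hsp90b1, 1.07 for Dnaja1 over Dnajb1, 1.07 for Hspd1 over Hspe1 and a summed share of 0.954%. Ranking all 72 genes, also those under 1 TPM, among all nuclear protein-coding genes gave a median percentile of 75.7. The main value of 68.3 was over 64 genes. The 3 genes spanning at least 2-fold became 5 with no filter on level, 1 with a pseudocount of 10 and 1 to 2 when a replicate was left out. The lowest count came without replicate 1, which left Hspa12b alone. Among the chaperone genes from 1 to under 10 TPM, counts ran from 1 in Hspb1 to 240 in Dnajc12 and Dnajc25, all in replicate 1. The part of depth in their spread was not tested. No paired analysis was possible because the series has a single group.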
